A study of Homo sapiens with 6 samples.

Results

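Integrins are adhesion receptors built from 1 alpha and 1 beta subunit, each the product of its own gene. The 10 genes described here are the alpha subunits ITGAX, ITGAM, ITGAL, ITGA4, ITGA5 and ITGAV and the beta subunits ITGB1, ITGB2, ITGB3 and ITGB8. They were taken by gene symbol from a table of read counts for 23710 genes, and each of the 10 was found there. The RNA came from THP-1, an established human line from a monocytic leukaemia, after 6 h with 10 uM mebendazole or with its vehicle DMSO. Mebendazole is a drug against parasitic worms that binds beta tubulin and blocks the growth of microtubules. Each group had 3 libraries, and the labels number them as 3 pairs of 1 DMSO and 1 mebendazole library. No other agent or genotype was part of either group. THP-1 is a single cell line, and nothing in the labels tells if a pair is a culture or a day of its own, so the p-values measure the spread between these libraries, which may be technical.

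The beta subunit ITGB2 is largely restricted to leukocytes. It joins ITGAL to form LFA-1, ITGAM to form Mac-1 (complement receptor 3) and ITGAX to form CD11c/CD18, receptors with which monocytes hold to endothelium and take up opsonised particles. The beta subunit ITGB1 is shared by many cell types and by many alpha subunits, among them ITGA4, which binds VCAM1 and fibronectin, and ITGA5, the fibronectin receptor. ITGAV pairs with ITGB1, ITGB3, ITGB5, ITGB6 or ITGB8. The dimers with ITGB3 bind vitronectin and other matrix proteins, and those with ITGB8 bind latent TGF-beta. RNA was measured here, and neither surface protein nor adhesion was.

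Library totals ran from 13420558 to 15727667 reads. The 10 genes together took 0.270% to 0.288% of the reads in DMSO and 0.314% to 0.319% with mebendazole. Levels are given as CPM, the usual read count scaled for depth, here with TMM factors. Of 13591 genes tested with edgeR's quasi-likelihood test, 82.3% were called changed at an adjusted p under 0.05 (40.6% higher and 41.7% lower), so a call by itself does not set a gene apart in these data. The median gene moved by -0.24 on the log2 scale when libraries were scaled by their totals in place of TMM. With totals, 30.8% of the genes tested were called higher and 53.9% lower, so higher genes were 36.4% of the called genes, against 49.3% with TMM. Of the markers fixed for the labelled cell type, all 13 monocytic genes were detected, with summed levels of 2605 to 2745 CPM in DMSO and 2838 to 2909 CPM with mebendazole. Under TMM, 5 of the 13 were called higher and 6 lower. When totals set the scale, the calls became 4 higher and 9 lower, so the balance of directions depends on TMM. The TMM factors were 1.08 to 1.10 in DMSO and 0.91 to 0.93 with mebendazole, so the order of the summed levels depends on them too. The 4 markers with the smallest p were CD36, CD33, SPI1 and CSF2RA. The scavenger receptor CD36 (log2 fold change -1.57) and the lectin CD33 (-1.76) fell. The transcription factor SPI1 (0.98) and the receptor subunit CSF2RA (1.53) rose.

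Promoter sequence was at hand for 6 of the 10 genes in RefSeq's table (GRCh38.p14), and for 4 of them the window lay at the annotated start of the gene. These 4 are shown so that 3 subunits that rose (ITGA5, ITGAV, ITGB1) can be set beside 1 that fell (ITGAM). Each run has 250 bases before the start and 10 after it, 5′ to 3′ on the gene's strand. Capitals mark matches, on either strand, to the AP-1 letters TGANTCA, the Sp1 letters GGGCGG or the PU.1 letters GAGGAA. No matches overlapped. ITGA5 lies on the minus strand at chr12:54419257-54419516, ITGAV on the plus strand at chr2:186589806-186590065, ITGB1 on the minus strand at chr10:32958221-32958480 and ITGAM on the plus strand at chr16:31259725-31259984.
ITGA5: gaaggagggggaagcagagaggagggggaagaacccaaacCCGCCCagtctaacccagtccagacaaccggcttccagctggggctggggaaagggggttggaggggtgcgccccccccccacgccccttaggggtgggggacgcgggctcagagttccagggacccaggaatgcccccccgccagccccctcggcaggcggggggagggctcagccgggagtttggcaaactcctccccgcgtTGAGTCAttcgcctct
ITGAV: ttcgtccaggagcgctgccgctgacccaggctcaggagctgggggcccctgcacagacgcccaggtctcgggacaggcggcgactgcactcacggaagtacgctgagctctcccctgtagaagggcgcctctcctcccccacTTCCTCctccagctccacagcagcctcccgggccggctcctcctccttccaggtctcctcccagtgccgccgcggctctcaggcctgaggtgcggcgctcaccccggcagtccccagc
ITGB1: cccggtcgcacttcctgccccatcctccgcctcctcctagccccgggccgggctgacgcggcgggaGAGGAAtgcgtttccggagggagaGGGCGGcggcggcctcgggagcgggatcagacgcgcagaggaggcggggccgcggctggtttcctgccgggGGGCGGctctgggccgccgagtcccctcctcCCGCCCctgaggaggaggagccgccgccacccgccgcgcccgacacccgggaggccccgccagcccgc
ITGAM: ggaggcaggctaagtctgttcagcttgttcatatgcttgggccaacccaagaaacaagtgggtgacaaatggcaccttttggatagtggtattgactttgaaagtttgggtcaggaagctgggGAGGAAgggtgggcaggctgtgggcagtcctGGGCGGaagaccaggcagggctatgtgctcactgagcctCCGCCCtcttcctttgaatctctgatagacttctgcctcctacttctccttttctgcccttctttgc

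The ITGA5 window held the AP-1 letters once, beginning 6 bases before the start, and the Sp1 letters once. ITGB1 held the Sp1 letters at 3 places and the PU.1 letters once. ITGAM held the Sp1 letters at 2 places and the PU.1 letters once, and ITGAV held the PU.1 letters once. Among all 35116 windows of the same length, 6.92% held the AP-1 letters, 43.1% the Sp1 letters and 24.5% the PU.1 letters. These matches describe letters and are not evidence of a factor at the site.

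The subunits split in direction within both receptor families. Of the 10 genes, 8 were above the filter on low counts in all 6 libraries, and of those 8, the 4 genes ITGAX, ITGAV, ITGB1 and ITGA5 rose and the 4 genes ITGAL, ITGA4, ITGAM and ITGB2 fell. Among the 12260 genes above that filter in all 6 libraries, 40.7% rose, 42.0% fell and 82.7% were called in either direction. The median log2 fold change of the 8 was 0.475, against -0.021 for those 12260 genes. The 10 genes were chosen with earlier results of these data known, so this difference is a description. ITGB3 and ITGB8 passed the filter through the mebendazole libraries alone, which fixes their direction. No gene of the 10 had overlapping groups, a pattern that 82.4% of all genes tested shared.

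**Figure D1:**
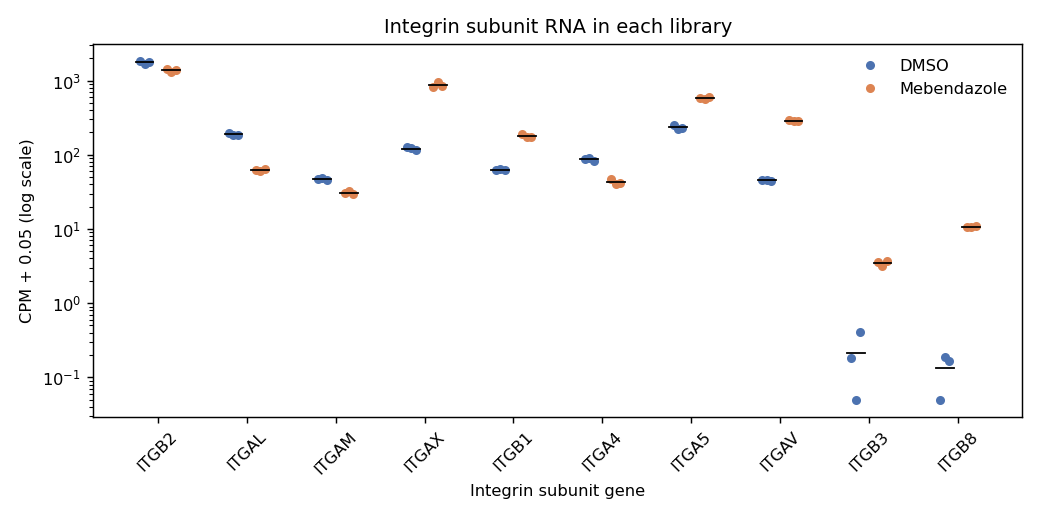
Level of each of the 10 subunits in each library, as CPM with 0.05 added so that libraries at 0 can be drawn on the log axis; points are libraries and black bars are group means. ITGAX rose from 121 to 871 CPM on average while ITGAL fell from 190 to 62.1 CPM, and ITGB3 and ITGB8 lay below 0.4 CPM in every DMSO library.

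ITGB2, the shared beta subunit of the leukocyte integrins, stood at 1840, 1672 and 1754 CPM in DMSO and at 1427, 1309 and 1402 CPM with mebendazole. Every mebendazole library lay below every DMSO library, but the distance was small. The log2 fold change was -0.35 (SE 0.01 over the 3 pairs, adjusted p = 1.1e-17, edgeR), a 1.27-fold lower level. The TruSeq RNA v2 kit named in the labels does not mark strand, and reads of the antisense gene ITGB2-AS1, looked up after the values of ITGB2 were seen, cannot be told apart from those of ITGB2 where both overlap. ITGB2-AS1 had 1064 reads in DMSO and 375 with mebendazole, against 82501 and 55028 for ITGB2.

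ITGAX, the alpha chain of CD11c/CD18 and a common marker of dendritic cells and macrophages, stood at 128, 122 and 114 CPM in DMSO. It reached 808, 965 and 841 CPM with mebendazole. The second mebendazole library was the highest of the 3, and the groups lay far apart. The log2 fold change was 2.84 (SE 0.10 over the 3 pairs, adjusted p = 2e-60, edgeR), or 7.18-fold.

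ITGAL, the alpha chain of LFA-1, went the other way. Its levels were 199, 186 and 185 CPM in DMSO and 61.6, 61.1 and 63.6 CPM with mebendazole. The log2 fold change was -1.61 (SE 0.04 over the 3 pairs, adjusted p = 2.7e-43, edgeR), a 3.06-fold fall.

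ITGAM, the alpha chain of Mac-1, fell less. Its levels were 47.3, 48.6 and 46.3 CPM in DMSO and 30.0, 32.4 and 29.4 CPM with mebendazole. The log2 fold change was -0.63 (SE 0.02 over the 3 pairs, adjusted p = 3.6e-15, edgeR), a 1.55-fold fall. ITGAM and ITGAX are neighbours on chromosome 16 with no protein-coding gene between them in RefSeq's order (GRCh38.p14), and ITGAD, the remaining alpha partner of ITGB2, follows ITGAX in the same way. ITGAL lies on the same chromosome with 35 protein-coding genes between it and ITGAM. Of these neighbours, ITGAX moved up and ITGAM down in each of the 3 pairs. ITGAD was too low to be tested. It had 1 read in each DMSO library and 16, 9 and 13 reads with mebendazole, a ratio of summed counts of 14.9 (95% counting interval 4.74 to 75.6, which covers counting error only).

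The makeup of the ITGB2 alpha partners was then compared within each library as shares of reads per kilobase of transcript, a measure that does not depend on how libraries are scaled. ITGAL made up 50.6%, 49.7% and 51.0% of the 4 alpha partners in DMSO and 6.21%, 5.23% and 6.18% with mebendazole. ITGAX made up 36.1%, 36.1% and 34.9% in DMSO and 90.3%, 91.6% and 90.6% with mebendazole. ITGAM went from 13.8% ± 0.53 to 3.17% ± 0.14 (SD, n = 3 per group). In DMSO, then, ITGAL was the most abundant alpha partner RNA in each library, and with mebendazole it was ITGAX. The 4 alpha partners summed to a log2 ratio over ITGB2 of -2.93 ± 0.06 in DMSO and -1.09 ± 0.19 with mebendazole, so ITGB2 RNA exceeded the sum of its alpha partners in all 6 libraries and by less with mebendazole. For each share, and for the other 5 measures compared in this way, the 2 groups did not overlap. The exact permutation test (two-sided) gave p = 0.1, the smallest that 3 against 3 libraries allow (p = 0.1 after Benjamini-Hochberg adjustment over the 9 comparisons). ITGB3 and ITGB8 passed the filter through the mebendazole libraries alone, and ITGAD had 1 read in each DMSO library. The separation of these genes' shares is therefore only a description. Shares within a set also depend on each other, so the 9 comparisons are not independent. These are shares of RNA and not of receptors.

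**Figure D2:**
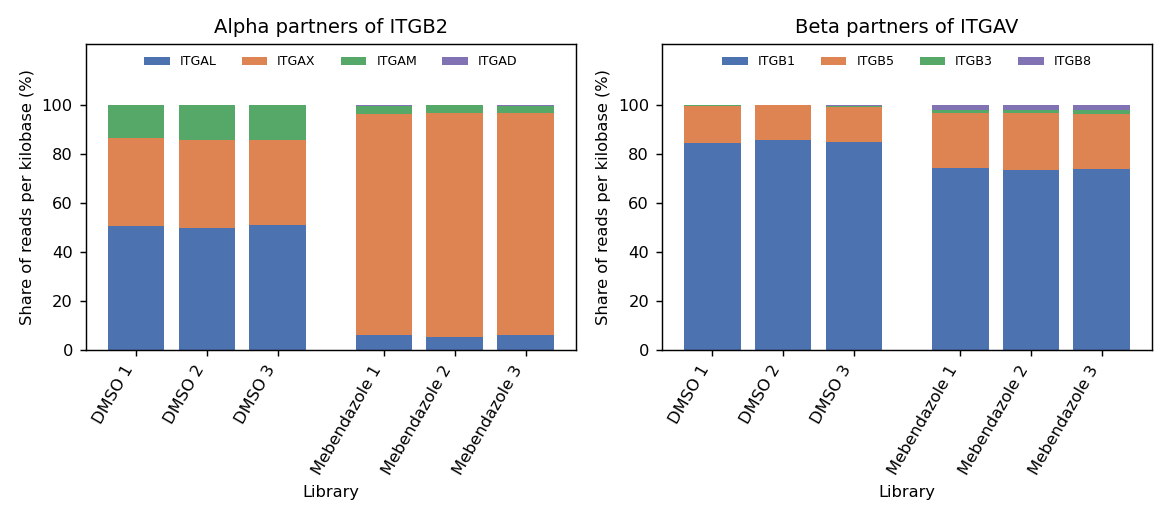
Share of reads per kilobase of transcript in each library, for the 4 alpha partners of ITGB2 on the left and for the beta partners of ITGAV on the right, each bar being 1 library. The ITGAX part grows from 35.7% to 90.8% on average on the left, and on the right the ITGB5 part grows from 14.7% to 22.9%. ITGB6, with 1 read in each group, is counted in the total and not drawn.

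ITGB1, the widely shared beta subunit, rose while ITGB2 fell. Its levels were 62.5, 63.7 and 62.8 CPM in DMSO and 188, 173 and 175 CPM with mebendazole. The log2 fold change was 1.503 (SE 0.05 over the 3 pairs, adjusted p = 1.2e-41, edgeR), or 2.84-fold. The log2 ratio of ITGB2 to ITGB1, per kilobase and within a library, was 5.13, 4.96 and 5.05 in DMSO and 3.18, 3.17 and 3.25 with mebendazole. ITGB2 RNA was therefore the more abundant of the pair in every library, by a smaller margin with mebendazole (exact permutation p = 0.1, as above).

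ITGA5, the alpha chain of the fibronectin receptor, also rose. It stood at 255, 226 and 228 CPM in DMSO and at 578, 565 and 596 CPM with mebendazole, a log2 fold change of 1.30 (SE 0.06 over the 3 pairs, adjusted p = 1.8e-43, edgeR). ITGA4, which with ITGB1 forms VLA-4, fell. It stood at 86.7, 91.0 and 81.5 CPM in DMSO and at 46.6, 40.9 and 41.1 CPM with mebendazole, a log2 fold change of -1.01 (SE 0.08 over the 3 pairs, adjusted p = 2.3e-27, edgeR). The log2 ratio of ITGA5 to ITGA4 per kilobase went from 1.36 ± 0.13 in DMSO to 3.67 ± 0.12 with mebendazole (SD, n = 3 per group), a description with no test. ITGB7, a leukocyte beta subunit that also pairs with ITGA4, fell from 46.7 ± 1.97 to 34.5 ± 1.17 CPM (log2 fold change -0.44, adjusted p = 8.9e-10, edgeR).

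ITGAV, the alpha chain of the vitronectin receptor, rose by nearly the same amount in every pair. Its levels were 45.4, 46.0 and 44.6 CPM in DMSO and 292, 284 and 283 CPM with mebendazole. The 3 pairs gave log2 differences of 2.69, 2.63 and 2.66, and the fitted log2 fold change was 2.66 (adjusted p = 1.4e-56, edgeR), or 6.31-fold. Its log2 ratio to ITGB1 per kilobase moved from -1.37 ± 0.02 to -0.21 ± 0.04 (SD, n = 3 per group), but which of the pair was higher with mebendazole depends on the length used. The ratio there was 0.29 ± 0.04 with coding length and 0.68 ± 0.04 with undivided reads, so ITGAV was then the higher.

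The more specialised beta partners of ITGAV were scarce in DMSO. ITGB8 had 0, 2 and 2 reads there and 148, 136 and 138 with mebendazole (10.5, 10.4 and 10.9 CPM). Summed over the libraries, mebendazole exceeded DMSO 124-fold (95% counting interval 48.2 to 458.5). ITGB3 had 2, 0 and 6 reads in DMSO and 50, 41 and 47 with mebendazole (3.54, 3.15 and 3.70 CPM), a ratio of 20.3 (95% counting interval 10.0 to 48.0). Since both passed the filter through the mebendazole libraries alone, these counts are given as a description. The third DMSO library held 6 of the 8 reads of ITGB3, and without the third pair its fitted log2 fold change was 5.47 against 4.29 with all pairs. ITGB5, which was detected at 12.6 ± 0.51 CPM in DMSO, rose to 63.9 ± 2.24 CPM (log2 fold change 2.34, adjusted p = 8.2e-42, edgeR). ITGB6 had 1 read in each group.

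Within each library, ITGB1 remained the largest beta partner of ITGAV by reads per kilobase, at 85.0% ± 0.69 in DMSO and 73.9% ± 0.32 with mebendazole. ITGB5 went from 14.7% ± 0.62 to 22.9% ± 0.31. ITGB8 went from 0.049% ± 0.043 to 1.90% ± 0.10, and ITGB3 from 0.21% ± 0.23 to 1.36% ± 0.11 (SD, n = 3 per group). The ITGB8 share depends on the length used, reaching 4.29% ± 0.21 with coding length and 4.13% ± 0.21 with undivided reads. ITGB1 also serves other alpha subunits, so these shares are not shares of ITGAV dimers.

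Per kilobase of transcript, the order of the 10 levels in DMSO was ITGB2 (552 CPM per kilobase), ITGA5 (53.1), ITGAL (36.5), ITGAX (25.8), ITGA4 (20.6), ITGB1 (16.7), ITGAM (9.99), ITGAV (6.45), ITGB3 (0.040) and ITGB8 (0.0096). All neighbours in that order were separated in their libraries except ITGB3 and ITGB8. With mebendazole the order was ITGB2 (434), ITGAX (185), ITGA5 (130.4), ITGB1 (47.2), ITGAV (40.7), ITGAL (11.9), ITGA4 (10.2), ITGAM (6.45), ITGB8 (1.21) and ITGB3 (0.867), and no neighbours overlapped. ITGAL dropped from the 3rd to the 6th place. ITGAV rose from the 8th to the 5th, or, with coding length, from the 7th to the 4th, changing places with ITGAM in DMSO and with ITGB1 with mebendazole. The lengths are those of the longest coding transcript in GENCODE 29, which need not be the form these cells make.

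**Figure D3:**
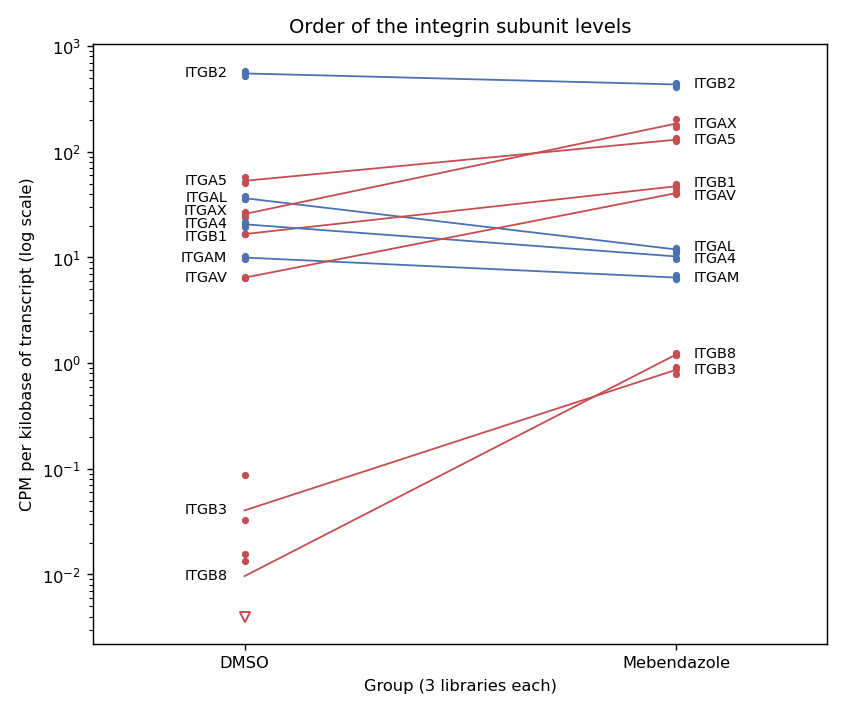
CPM per kilobase of transcript (log axis) for the 10 subunits in each group, with points for libraries, lines joining group means, red for genes that rose and blue for genes that fell. The open triangle at the foot marks libraries with no read (1 for ITGB3 and 1 for ITGB8, drawn over each other). ITGAX crosses ITGA5 and ITGAL on its way from 25.8 to 185.

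Of the 16 other integrin subunit genes, 13 were tested, with 5 higher, 4 lower and 4 not called. Among all genes tested, 40.6% were higher and 41.7% lower. Over the 10 of them above the filter in all 6 libraries, 4 rose and 4 fell, beside 40.7% and 42.0% of all such genes. The median log2 fold change of these 10 was -0.13. Besides ITGB5, the laminin receptor alpha chain ITGA6 rose from 7.81 ± 1.31 to 23.7 ± 1.11 CPM (log2 fold change 1.61), and ITGA3 (1.40) and ITGA10 (0.93) rose from a few CPM. The ITGA10 pairs were uneven, with log2 differences of 0.17, 1.64 and 0.89. Without the second pair its fitted value was 0.56 (adjusted p = 0.018, edgeR). ITGA1 was called at 1.07 on 21 and 37 reads, but its libraries overlapped between the groups, and it was not called with library totals (adjusted p = 0.059), with DESeq2 (adjusted p = 0.21) or without the third pair (adjusted p = 0.40 in edgeR). ITGA11 (-1.08) and the collagen receptor chain ITGA2 (-0.94) fell, and ITGB7 and ITGA7 (-0.34) fell by less. ITGAE, ITGA2B, ITGA9 and ITGB4, with log2 values of 0.005, 0.14, -0.27 and -0.21, did not pass the test, and those small values changed sign with some settings. ITGA8 had no read in any library.

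**Figure D4:**
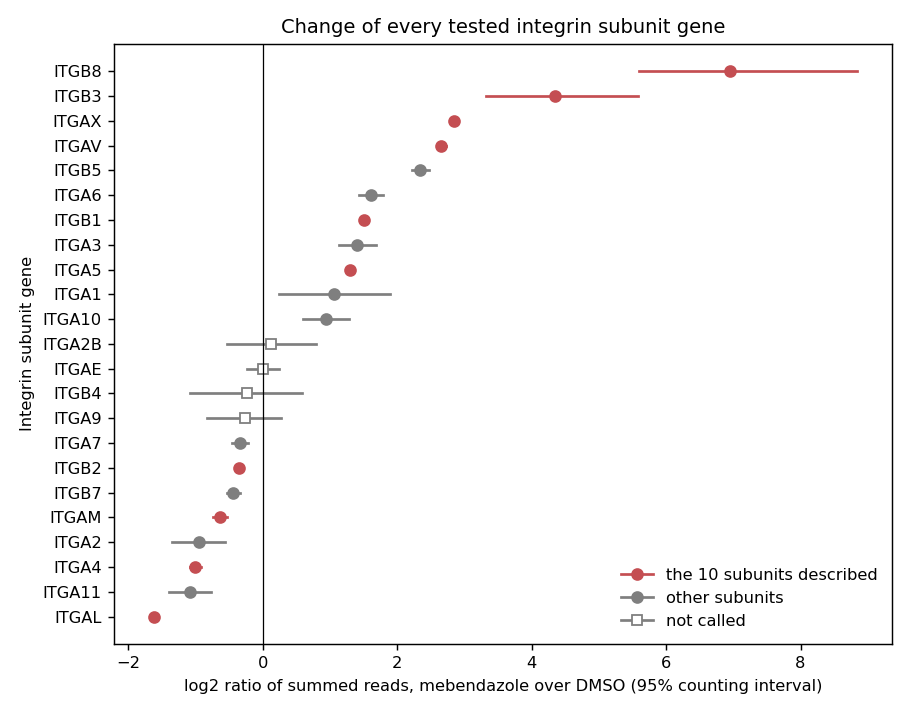
log2 ratio of summed reads, mebendazole over DMSO after TMM scaling, for each of the 23 integrin subunit genes tested, with 95% counting intervals as bars; red marks the 10 subunits described and open squares genes not called. ITGB8 and ITGB3 have wide intervals because of their few DMSO reads, and the narrow bars of the abundant genes show counting error and not the spread of replicates.

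Cells other than monocytes can also make some of these subunits, and markers for such cells were read beside the results. The labels name the THP-1 line alone, so reads of a marker need not mean that another cell type was present. In a bulk sample fewer cells of a type and less RNA per cell cannot be told apart. The 11 lymphocyte markers summed to 17.4 to 19.98 CPM in DMSO and 30.5 to 33.2 CPM with mebendazole, and 3 were tested. NKG7 (log2 fold change 0.82) and NCAM1 (1.96) rose. CD79B, with 94 reads in DMSO and 13 with mebendazole, passed the filter through the DMSO libraries alone, which fixes its direction. The defining T cell markers were near 0: CD3D with 5 DMSO reads, CD3G with 2 and CD3E with 1, and none of them with a read after mebendazole. The part of these genes in the falls of ITGAL, ITGA4 and ITGB7 was not tested. The 11 megakaryocyte and erythroid markers, read beside ITGB3, summed to 9.99 to 11.7 CPM in DMSO and 8.93 to 9.74 CPM with mebendazole. Of 4 tested, EPOR was called lower (-0.35), GP9, with 40 and 11 reads, passed the filter through the DMSO libraries alone, and GP1BA (0.48) and TUBB1 (-0.29) were not called. EPOR was not called by DESeq2 (adjusted p = 0.26) or in edgeR without any 1 of the 3 pairs (adjusted p = 0.07, 0.11 and 0.05). PF4 had 0 DMSO reads and 1 mebendazole read, PPBP had 0 and 8, and HBA1 had none. Their part in the rise of ITGB3 was not tested. The 12 epithelial, stromal and endothelial markers, read beside ITGAV and ITGB5, summed to 4.29 to 6.77 CPM in DMSO and 5.04 to 6.09 CPM with mebendazole. PDGFRB had 92 and 33 reads and did not pass the filter in all 6 libraries, and KRT8 was called at 0.78 but not with DESeq2 (adjusted p = 0.20) or, in edgeR, with library totals (adjusted p = 0.096) or without the third pair (adjusted p = 0.16). COL1A1 (0.52) and VWF (0.46) were not called, and COL1A2 had no read in any library. Their part in the rises of ITGAV and ITGB5 was not tested.

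The listed ligands of integrins were mostly higher. Of 34 listed, 26 were tested and 18 were above the filter in all 6 libraries. Of those 18, 14 rose and 3 fell, beside 40.7% and 42.0% of all such genes. Their median log2 fold change was 1.19 beside -0.021. The list was chosen with earlier results of these data known, so this difference describes the listed genes and tests nothing about ligands in general. ICAM1, the ligand of LFA-1 and Mac-1, rose from 20.6 ± 0.23 to 340 ± 8.72 CPM (log2 fold change 4.05). THBS1, a matrix protein that binds ITGAV dimers among others, rose by 9.48 on the log2 scale. The laminin chains LAMA5 and LAMC1 rose 8.10-fold and 3.08-fold. Fibronectin (FN1), the ligand of ITGA5, was scarce, with 107 reads in DMSO and 295 with mebendazole (log2 fold change 1.69). Vitronectin (VTN) had 4 DMSO reads and 44 mebendazole reads, VCAM1, the ligand of ITGA4, had 2 and 5, and neither was tested. FN1, VTN and VCAM1 were singled out after their values were seen, as were the genes of latent TGF-beta. TGFB1 itself fell from 149 ± 8.85 to 114 ± 7.39 CPM (log2 fold change -0.39), whereas LTBP1, which binds its latent form to matrix, rose from 1.05 ± 0.27 to 18.5 ± 1.63 CPM. LRRC32, which holds it at the cell surface, had 24 reads in DMSO and 153 with mebendazole and passed the filter through the mebendazole libraries alone. NRROS, the corresponding carrier of myeloid cells (LRRC33 in the table), stood at 99.6 ± 7.07 and 105 ± 2.72 CPM and did not pass the test (adjusted p = 0.12, edgeR).

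The listed activators and inhibitors of integrins went both ways. Of 18 tested, 9 were higher and 7 lower, beside 40.6% and 41.7% of all genes tested. Of the 17 above the filter in all 6 libraries, 9 rose and 6 fell, with a median of 0.09 on the log2 scale. With library totals, however, 4 rose and 11 fell, beside 30.8% and 53.9% of all genes tested, so the balance rests on the scaling. The 4 with the smallest p were CYTH1 (2.43), an exchange factor that binds the tail of ITGB2, the small GTPase RAP1B (1.57), and the adaptors FYB (-3.93) and APBB1IP (-2.18), which link T cell or RAP1 signals to integrins. FYB went from 44.6 ± 2.09 to 2.92 ± 0.48 CPM and APBB1IP from 59.0 ± 1.65 to 13.0 ± 1.07 CPM. The core activators of leukocyte integrins, talin (TLN1) and kindlin-3 (FERMT3), singled out after their values were seen, were called higher by 0.09 each. This is less than the 0.24 by which library totals shift the median gene, so their direction rests on the scaling. The other listed kindlins, also singled out afterwards, moved further. FERMT2 rose from 1.52 ± 0.27 to 22.0 ± 0.99 CPM (3.86). FERMT1 had 309 reads in DMSO and 22 with mebendazole and passed the filter through the DMSO libraries alone.

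Among 28 adaptors and kinases of adhesion sites, 15 rose and 10 fell, beside 40.6% and 41.7% of all genes tested. Scaled by library totals, 14 rose and 13 fell, beside 30.8% and 53.9%. Of the 27 above the filter in all 6 libraries, 14 rose and 10 fell, beside 40.7% and 42.0% of all such genes. Their median was 0.51 on the log2 scale. The kinase SRC rose from 27.9 ± 1.89 to 165 ± 6.27 CPM (2.57). SYK, the kinase that myeloid integrins share with Fc receptors, fell from 238 ± 3.36 to 92.6 ± 3.09 CPM (-1.36). TNS3, a tensin, fell from 129 ± 8.21 to 33.2 ± 1.30 CPM (-1.96), and DOCK2, a RAC activator of leukocytes, from 244 ± 2.01 to 111 ± 0.94 CPM (-1.14).

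The 17 tetraspanins and other surface partners had 10 genes that rose and 4 that fell, beside 40.6% and 41.7% of all genes tested. Scaled by library totals, 9 rose and 7 fell, beside 30.8% and 53.9%. The 10 higher genes include LRRC32, whose direction the filter fixes. Of the 16 above the filter in all 6 libraries, 9 rose and 4 fell, beside 40.7% and 42.0% of all such genes. Their median was 0.31 on the log2 scale. PLAUR, the urokinase receptor, which associates with integrins at the surface, rose from 69.6 ± 1.69 to 758 ± 4.61 CPM (3.45). The tetraspanins CD82 (2.60), CD9 (2.44) and CD151 (1.05) rose as well. Tetraspanins went both ways, since the 4 genes of the list that fell with TMM were all tetraspanins. They were TSPAN32 (-1.29), TSPAN14 (-0.965), CD53 (-0.54) and CD37 (-0.51), named after their values were seen.

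**Figure D5:**
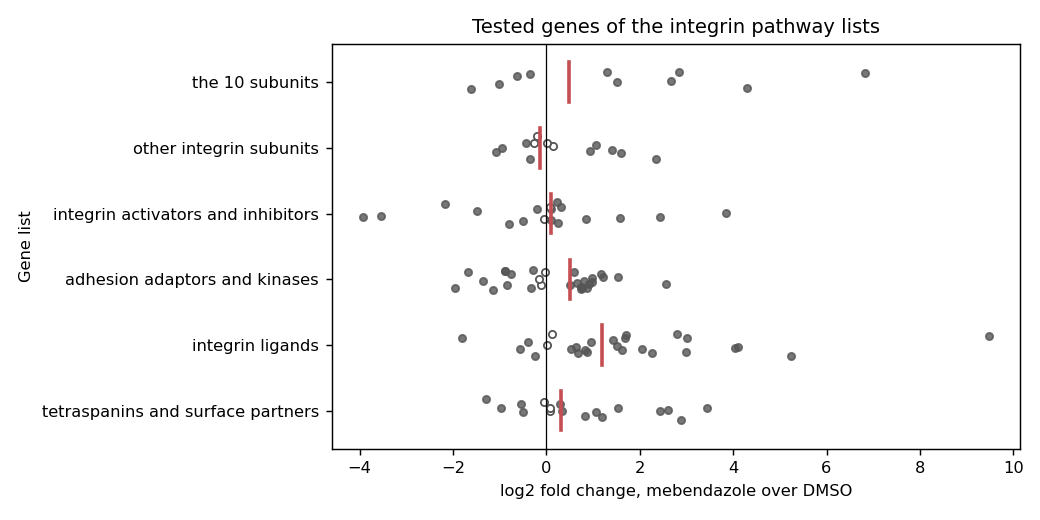
log2 fold change, mebendazole over DMSO, of each tested gene in the 6 lists of the integrin pathway; filled points were called, open points were not, and red bars are medians over the genes above the filter in all 6 libraries. The 18 ligands above the filter in all 6 libraries have a median of 1.19, and the list of activators and inhibitors is spread on both sides of 0 with a median of 0.09.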

How the data were processed

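The deposited values are raw counts of reads for each gene symbol in each of the 6 libraries. The submitters' processing notes list STAR, bedtools, HTSeq, DESeq2 and hg19, with neither version nor role. The sources used here give no annotation and no strand setting. Per the labels' protocols, libraries were of the TruSeq RNA v2 type (Illumina). Columns that belong to no sample numbered 0.

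Counts were filtered with filterByExpr (13591 of 23710 genes), scaled by TMM and tested with edgeR 4.0.16 in R 4.3.3 (quasi-likelihood, two-sided, pair as a term, Benjamini-Hochberg over all genes tested). The fit left 2 residual degrees of freedom per gene and had a prior of 61, so small p-values rest mostly on spread pooled over genes. The SE is that of the log2 CPM differences of the 3 pairs. Counting intervals are exact binomial at 95%. The script was tested on simulated data. Transcript lengths are from GENCODE 29, matched by symbol.

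The 10 genes and the lists were chosen with earlier results of these data known. Named genes are the 10, each other integrin subunit tested and the 4 tested genes of each list with the smallest p; others are marked in the text, and untested genes given by their reads were also chosen after their values were seen. Alternatives were other scalings, no filter, DESeq2 1.42.0, no pair term, each pair left out, and other lengths. Replicates differed by more than sampling noise (chi-square per degree of freedom 1.45 to 3.27). Each library was counted as 1 sample, but this spread may be technical and does not show that the libraries are separate cultures.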

Additional observations from a re-analysis of the deposited data

How the results depend on the processing

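The 8 subunits above the filter in all 6 libraries kept their direction and call in every alternative (RLE factors, library totals, no filter, DESeq2, no replicate block and each pair left out); for ITGB3 and ITGB8 the filter fixes the direction. With no replicate block the log2 fold change of ITGAX was 2.85 and that of ITGB2 was -0.35, and 5480 genes were called higher and 5638 lower. Same-numbered libraries had deviations that correlated at -0.001, 0.061 and 0.016, and 1 of the 3 correlated best with its own number, so the numbers were not taken to pair the samples beyond the planned term. Of 44 other named genes, 33 kept direction and call throughout. Without 1 pair, 5231 to 5453 genes were called higher and 5341 to 5463 lower.

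With library totals, called genes numbered 4 higher and 11 lower among activators and inhibitors, 7 lower among tetraspanins and partners and 0 higher among epithelial, stromal and endothelial markers, and the log2 values of ITGA2B (-0.10) and ITGAE (-0.24) reversed; this scaling shifts all log2 values down. ITGAE also reversed with no filter (-0.012). With DESeq2, 0 epithelial, stromal and endothelial markers were higher and 0 megakaryocyte and erythroid markers lower; 1 of the latter was higher with RLE factors and 1 with no filter. Without 1 pair, epithelial, stromal and endothelial markers called higher numbered 0 to 2 and megakaryocyte and erythroid markers called lower 1 in each case. Without 1 pair, the log2 values of subunits not called ran from -0.047 to 0.12 for ITGAE (-0.040 without the third pair), from -0.50 to 0.11 for ITGA9 and from -0.17 to 0.19 for ITGB4; the cause was not tested. COL1A1 was called without the first pair (adjusted p = 0.048, edgeR), GP1BA with RLE factors (adjusted p = 0.049) and TUBB1 with library totals (adjusted p = 0.037).

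The change in share, in percentage points, moved with the length used. For reads not divided by length and for coding length (chosen after seeing the data) it was -46.5 and -46.4 for ITGAL, -10.04 and -10.2 for ITGAM, 56.4 and 56.5 for ITGAX, -13.4 and -13.6 for ITGB1, and 4.02 and 4.18 for ITGB8, against 1.85 with transcript length, since the ITGB8 transcript is the longest of these. Leaving out 1 pair gave -11.6 to -10.6 for ITGB1. ITGB3 and ITGB8 are limited by 8 and 4 DMSO reads.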
